A study of Mus musculus with 6 samples.

Results

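Chromatin modifiers and remodellers were followed in mouse mesenchymal stem cells in which the formin Dia2 had been lowered by siRNA. The members were the rows of the deposited gene table whose symbol begins with one of a fixed set of family names. These were Hdac and Sirt (deacetylases), Kdm (histone demethylases), Setd, Suv, Ehmt and Ezh (histone methyltransferases), Dnmt and Tet (DNA methylation and its oxidation), Cbx (readers of methylated histones), Smarc, Arid and Chd (remodelling complexes) and Hmga, Hmgb and Hmgn (high mobility group proteins). The rule used no measured value and found 114 of 23358 rows.

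Cells came from the bone marrow of C57BL/6 mice and were used at passage 6 to 12. The Dia2 group (3 libraries) received an siRNA against Dia2 at 50 nM, and the control group (3 libraries) a non-targeting siRNA. Both groups went through the same overnight lipid transfection, and RNA was taken 24 h after the medium had been changed. Whether replicates were separate cultures is not stated in the labels, so the p-values cover the spread among these 6 libraries only, and that spread may be technical. Dia2, a protein that nucleates unbranched actin filaments, is encoded by Diaph3, which the table lists as Diap3. The design gives 1 siRNA against Dia2, so effects of its sequence and effects of lowering Dia2 cannot be told apart here. It is given here in the sense direction, and the 7 capitals are the bases to which the seed of the antisense strand (its bases 2 to 8) pairs.
Dia2 siRNA: cagagtccatgattcagAACTTAAt

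DNA in the nucleus is wrapped around histones, and the families described here write, remove and read chemical marks on histones and DNA or slide the histone octamers along it. Methylation of histone H3 at lysine 9, with heterochromatin protein 1 (HP1) bound to it, marks compacted heterochromatin, and Polycomb complexes silence developmental genes through methylation of lysine 27. In mesenchymal stem cells these enzymes are studied for their part in self-renewal and in the choice between bone, fat and cartilage fates.

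Levels are given as CPM, the counts scaled to library size with TMM factors, or as the authors' RPKM where genes are compared with each other per length. Changes are log2 fold changes of Dia2 siRNA over control siRNA ± SE from edgeR's quasi-likelihood test, with Benjamini-Hochberg adjustment over all 14151 genes tested, and "rose" and "fell" are used for an adjusted p under 0.05. Libraries are listed in the order replicate 1, 2 and 3. The libraries held 70538768 to 110006338 counts each. The floor, 6 counts, stood at 0.0545 to 0.0851 CPM and covers counting error only. Diaph3 itself stood at 7.52, 8.37 and 7.39 CPM in the Dia2 libraries and at 84.7, 80.1 and 84.8 CPM in the control libraries, a log2 fold change of -3.42 ± 0.07 (adjusted p = 1.66e-11). The ribosomal precursor Rn45s took 10.9% of the counts in Dia2 replicate 1 and 11.7% in control replicate 3, against 6.0% to 7.41% in the other libraries.

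The labelled cell type was checked against its markers, where 29.3% of all genes tested rose and 29.9% fell. Of 9 mesenchymal stem cell markers 8 were tested, and all 8 rose with Dia2 siRNA, with sums of 2489 to 2604 CPM in the Dia2 libraries and 1814 to 1936 CPM in the control libraries. Thy1, a common mesenchymal marker, was below the filter, with at most 10 counts in any library. Of 8 blood and macrophage markers, the pan-leukocyte gene Ptprc, Itgam and Adgre1 were below the filter, 4 of the 5 tested fell, and the list summed to 12.1 to 13.2 CPM in the Dia2 libraries against 20.2 to 22.0 CPM in the control libraries. The 5 endothelial markers summed to 0.812 to 0.958 CPM in the Dia2 libraries and 1.34 to 1.51 CPM in the control libraries, with 1 of 3 tested lower. Their part in the results below was not tested, and in bulk RNA fewer cells of a type and less RNA per cell cannot be told apart.

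Of the 114 members 110 were tested, of which 34 rose, 31 fell and 45 did not pass. This share of 59.1% stood beside 59.2% of all genes tested, with 29.3% of all genes higher and 29.9% lower, so the members changed about as often as genes in general. The median log2 fold change of the tested members was -0.03, against 0.01 over all genes tested. Changes were small: the median size among members past the test was 0.37 on the log2 scale, against 0.43 over all genes past it. At least 2-fold, Cbx7, Tet1 and Smarca1 were higher and Hdac9 and Hmga2-ps1 were lower, where 5.82% of all genes tested were higher and 2.76% lower by that much. The groups did not overlap for 73 of the 110 members, against 64.6% of all genes. Among genes of at least 10 CPM on average, 28 of 90 members rose and 27 fell, against 30.3% and 38.3% of all such genes. Together the members held 0.809% of the counts in the Dia2 libraries and 0.863% in the control libraries. Their summed level was 8092 to 8176 CPM in the Dia2 libraries and 8513 to 8604 CPM in the control libraries. Arid3c, with at most 0.0797 CPM, was not tested, and Dnmt3l and Hmgb4 had no count in any library.

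**Figure D1:**
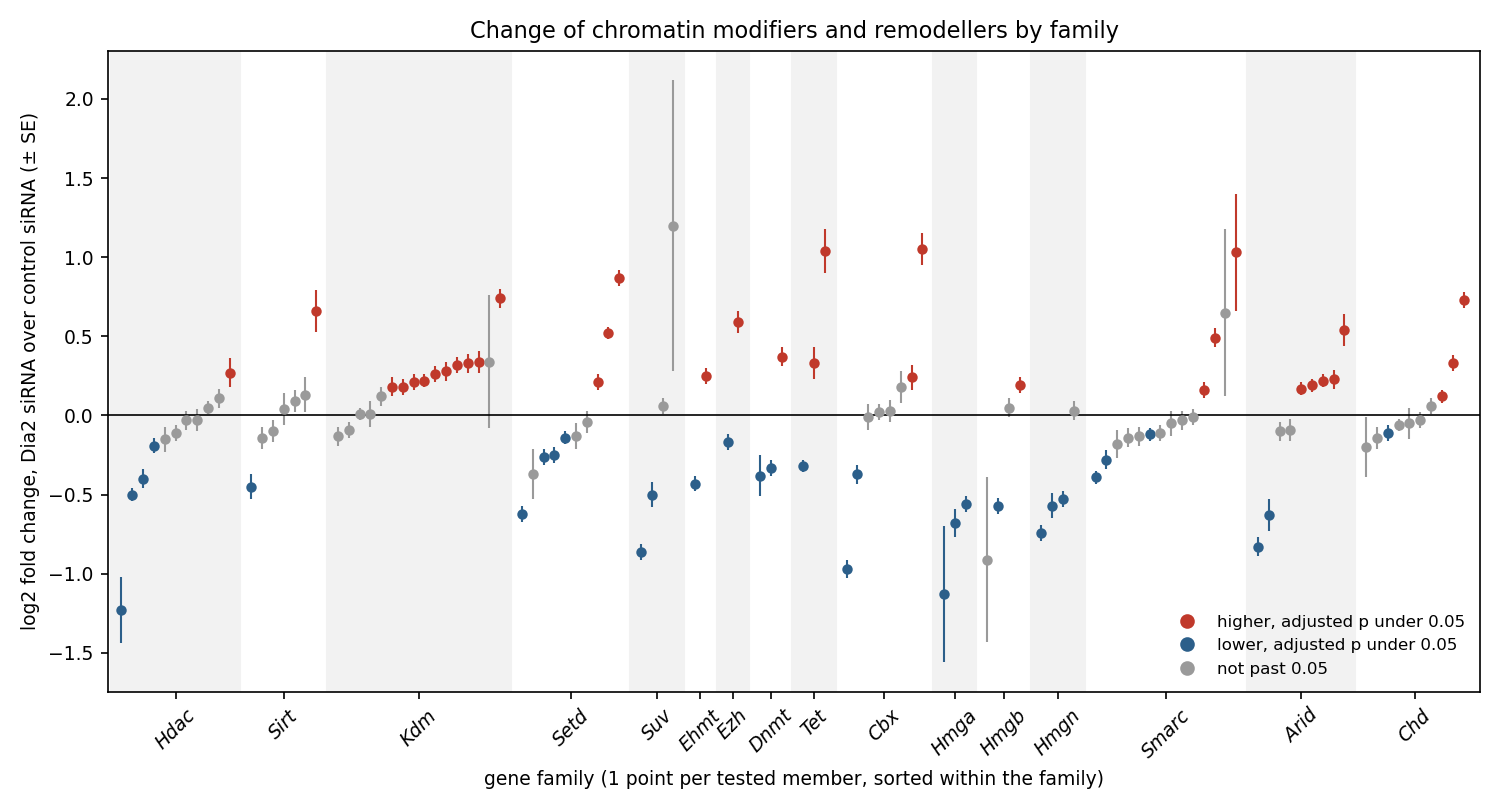
Log2 fold change of Dia2 siRNA over control siRNA (vertical axis, ± SE) for the 110 tested members, 1 point per gene, sorted within each family along the horizontal axis. Red points were higher and blue points lower at an adjusted p under 0.05; grey points did not pass. The Kdm points past the test all lie above 0, 7 of the 11 HMG points are blue, and families such as Cbx, Setd, Dnmt, Tet and Ezh hold points on both sides.

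The high mobility group genes encode small, abundant proteins that bend DNA or bind histone octamers and loosen chromatin. Of 11 tested, 7 fell, 1 rose and 3 did not pass. Their median log2 fold change was -0.57 against 0.01 over all genes tested, of which 29.9% fell and 29.3% rose. Among genes of at least 10 CPM on average, 38.3% fell and 30.3% rose. The 11 include the scarce copy rows Hmga2-ps1, counted as a fall at a mean of 0.36 CPM, and Hmgb1-rs17, which did not pass at 0.17 CPM. The summed level of the high mobility group genes was 1050.0, 1005 and 985 CPM in the Dia2 libraries and 1265, 1235 and 1383 CPM in the control libraries. The groups did not overlap in this sum.

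Hmgn proteins bind the nucleosome core and oppose compaction. Hmgn1 was the most abundant member per length in the control cells, at 127 ± 3.74 RPKM with Dia2 siRNA and 188 ± 2.91 RPKM with control siRNA (SD, n = 3 each). Its levels were 188, 181 and 183 CPM in the Dia2 libraries and 262, 253 and 280.3 CPM in the control libraries (-0.53 ± 0.05, adjusted p = 1.82e-06). Every Dia2 library lay below every control library. Hmgn2 (chr4:133964739-133967991) stood at 101, 97.5 and 97.0 CPM in the Dia2 libraries and at 156, 161 and 175 CPM in the control libraries. It had the largest fall of the tested Hmgn genes (-0.74 ± 0.05, adjusted p = 1.43e-07), again with no overlap. Hmgn3 followed at 17.97, 16.9 and 17.1 CPM against 24.8, 23.5 and 29.0 CPM in the control libraries (-0.57 ± 0.08, adjusted p = 5.09e-05); 15.2% of its exon bases are shared with Gm29054 on the opposite strand. Hmgn5, which binds linker histone, did not pass the test (0.03 ± 0.06, adjusted p = 0.717).

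Hmga proteins are architectural factors that bind AT-rich DNA and are abundant in dividing, immature cells. Hmga2 had 189, 179 and 177 CPM in the Dia2 libraries and 263, 253 and 285 CPM in the control libraries (-0.56 ± 0.05, adjusted p = 2.38e-06). Hmga1 had 35.2, 31.6 and 29.8 CPM in the Dia2 libraries and 49.8, 45.8 and 59.2 CPM in the control libraries (-0.68 ± 0.09, adjusted p = 4.38e-05). Both were separated between the groups. The row Hmga2-ps1 was scarce, at 0.227 ± 0.109 CPM with Dia2 siRNA and 0.493 ± 0.202 CPM with control siRNA (SD, n = 3 each); it passed the test (adjusted p = 0.0397) although its groups overlapped, and lost the call in 5 of the 16 alternative fits that tested it.

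The Hmgb proteins, which bend DNA through HMG boxes, split. Hmgb2 (chr8:57511843-57515999), linked to dividing cells, had 127, 125 and 121 CPM in the Dia2 libraries and 181, 175 and 198 CPM in the control libraries (-0.57 ± 0.05, adjusted p = 2.01e-06). Hmgb1, the abundant general form, had 317, 303 and 291 CPM in the Dia2 libraries and 259, 256 and 283 CPM in the control libraries. It rose slightly (0.19 ± 0.05, adjusted p = 0.00854) and lost the call without Dia2 replicate 1 (0.16, adjusted p = 0.0533). Per length, Hmgb1 stood at 2.91, 2.82 and 2.8 times Hmgb2 in the Dia2 libraries and at 1.67, 1.71 and 1.66 times in the control libraries. This ratio could not overlap, since Hmgb1 was higher and Hmgb2 lower in every Dia2 library. Hmgb3 did not pass (0.05 ± 0.06, adjusted p = 0.468). Hmgn1, Hmgn2, Hmga1 and Hmgb1 have processed copies in the genome, and Hmga2 has the copy row Hmga2-ps1. How multiply mapped reads were counted is not stated, so the counts of these genes are uncertain to that extent.

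**Figure D2:**
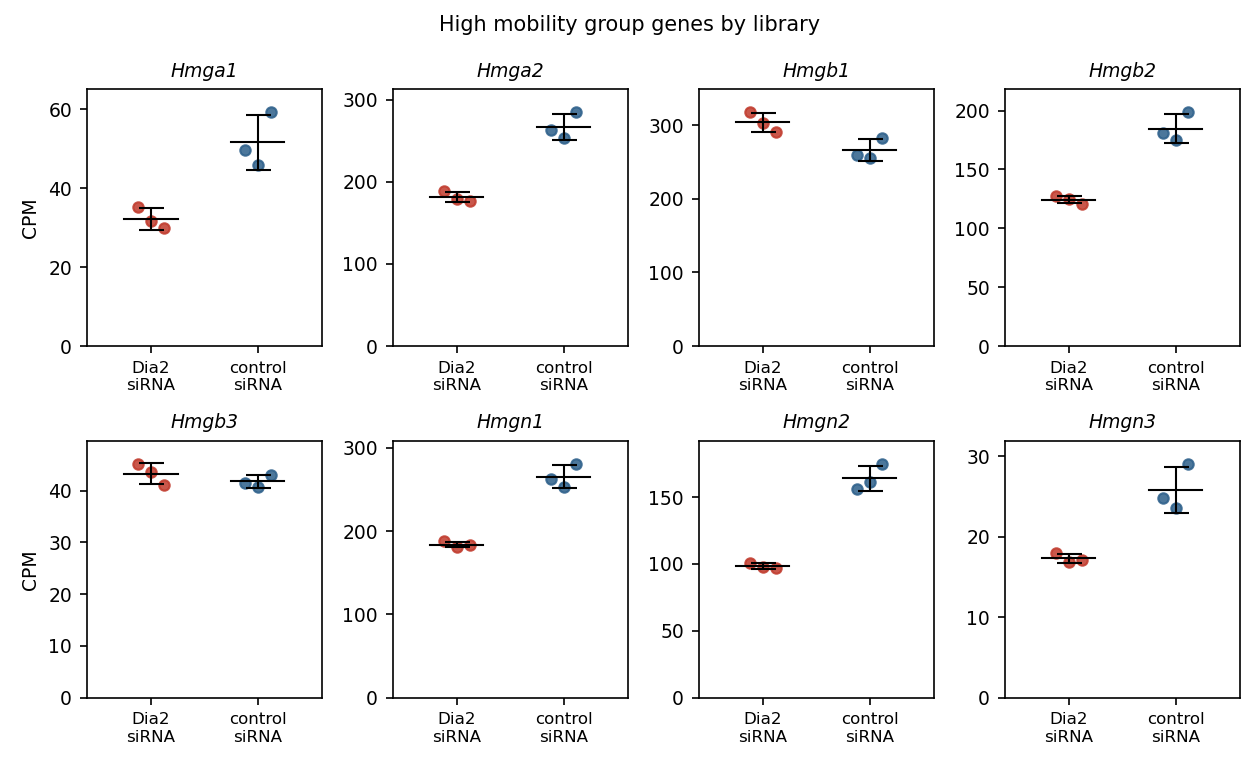
CPM of 8 high mobility group genes (vertical axes, linear from 0) in the 3 Dia2 siRNA libraries (red) and the 3 control siRNA libraries (blue); points are libraries, the long bar is the mean and the whiskers are ± 1 SD. All genes shown except Hmgb1 and Hmgb3 are lower in every Dia2 library, Hmgb1 is higher, and Hmgb3 overlaps.

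Genes of H3 lysine 9 heterochromatin changed in both directions. Of the 3 HP1 genes 2 fell and 1 did not pass, and of the 6 lysine 9 methyltransferases 3 fell, 2 rose and 1 did not pass, where 29.9% of all genes tested fell. Cbx1, Cbx3 and Cbx5 encode the HP1 proteins beta, gamma and alpha, which bind methylated lysine 9. Cbx5 (chr15:103191546-103239816) had 209, 199 and 195 CPM in the Dia2 libraries and 380.4, 369 and 429 CPM in the control libraries, the largest fall of the Cbx family (-0.97 ± 0.06, adjusted p = 7.59e-08). Cbx1 had 25.9, 26.3 and 27.7 CPM in the Dia2 libraries and 34.3, 34.4 and 34.4 CPM in the control libraries (-0.37 ± 0.06, adjusted p = 0.000111). Neither gene overlapped between the groups. Cbx3 did not follow: it had 223, 204 and 196 CPM in the Dia2 libraries and 170.2, 160.1 and 218 CPM in the control libraries (0.18 ± 0.10, adjusted p = 0.136). Its highest control value was that of replicate 3, and without that library it passed in the upward direction (0.33, adjusted p = 6.98e-05).

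Suv39h1 and Suv39h2 place the trimethyl mark to which HP1 binds. Suv39h1 (chrX:8061171-8074760) had 42.4, 42.2 and 43.8 CPM in the Dia2 libraries and 80.9, 77.1 and 75.5 CPM in the control libraries (-0.86 ± 0.05, adjusted p = 3.2e-08). Suv39h2 had 8.21, 8.75 and 8.98 CPM in the Dia2 libraries and 12.8, 11.2 and 12.9 CPM in the control libraries (-0.50 ± 0.08, adjusted p = 0.000125). Both fell with no overlap, and Suv39h1 was the more abundant per length, at 6.81 ± 0.248 times Suv39h2 with Dia2 siRNA and 8.75 ± 0.714 times with control siRNA (SD, n = 3 each). Of the exon bases of Suv39h1, 14.6% are shared with Gm14820 on the opposite strand.

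The enzymes of mono- and dimethylated lysine 9 in euchromatin, Ehmt1 (GLP) and Ehmt2 (G9a), which work as a pair, moved in opposite directions. Ehmt1 had 71.1, 74.9 and 74.1 CPM in the Dia2 libraries and 61.8, 63.0 and 59.7 CPM in the control libraries (0.25 ± 0.05, adjusted p = 0.000482). Ehmt2 had 187, 194 and 194 CPM in the Dia2 libraries and 267, 266 and 241 CPM in the control libraries (-0.43 ± 0.05, adjusted p = 1.5e-05). The RPKM of Ehmt1 over that of Ehmt2 was 0.304, 0.309 and 0.305 in the Dia2 libraries and 0.185, 0.189 and 0.198 in the control libraries. Setdb1, the lysine 9 methyltransferase recruited by Trim28, rose slightly (0.21 ± 0.05, adjusted p = 0.00344), and its relative Setdb2 did not pass (-0.13 ± 0.08, adjusted p = 0.171).

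**Figure D3:**
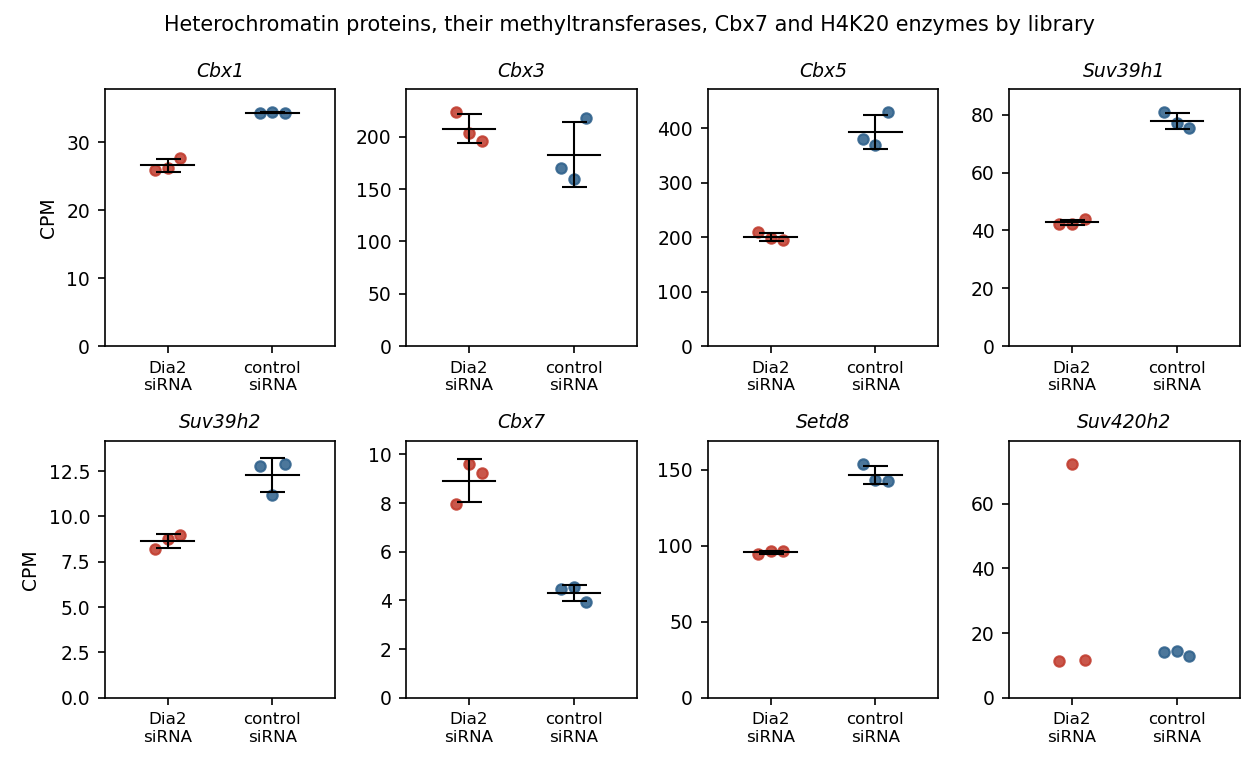
CPM (vertical axes, linear from 0) of the HP1 genes Cbx1, Cbx3 and Cbx5, the lysine 9 methyltransferases Suv39h1 and Suv39h2, the Polycomb reader Cbx7 and the H4 lysine 20 enzymes Setd8 and Suv420h2 in the 3 Dia2 siRNA (red) and 3 control siRNA (blue) libraries; bars are means ± 1 SD, left out for Suv420h2. Cbx5 and Suv39h1 are lower and Cbx7 is higher in every Dia2 library, and the single high Suv420h2 point is Dia2 replicate 2.

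Methylation of H4 lysine 20 is started by Setd8 (Kmt5a), whose protein is needed in dividing cells, and extended by Suv420h1 (Kmt5b) and Suv420h2 (Kmt5c). Setd8 (chr5:124439930-124462307) had 94.4, 96.2 and 96.3 CPM in the Dia2 libraries and 154, 143 and 142 CPM in the control libraries (-0.62 ± 0.05, adjusted p = 2.82e-07). Suv420h1 did not pass (0.06 ± 0.05, adjusted p = 0.34). Suv420h2, singled out after its values were seen, had 11.5, 72.2 and 11.7 CPM in the Dia2 libraries and 14.2, 14.6 and 12.9 CPM in the control libraries. Dia2 replicate 2 alone was high, with 6938 counts against 862 and 1092 in the other Dia2 libraries. Its log2 fold change of 1.20 ± 0.92 (adjusted p = 0.332) rested on that library, and without it the sign turned to -0.27 (adjusted p = 0.022).

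The remaining Setd genes went both ways. Setd7 (chr3:51515318-51560823), a lysine methyltransferase of histone H3 and of several transcription factors, had 204, 198 and 199 CPM in the Dia2 libraries and 105, 107 and 118 CPM in the control libraries (0.87 ± 0.05, adjusted p = 4.34e-08). Setd5, a large SET-domain gene, had 224, 231 and 231 CPM in the Dia2 libraries and 157, 160.2 and 161 CPM in the control libraries (0.52 ± 0.04, adjusted p = 5.44e-07). In both the Dia2 libraries lay above all control libraries. Setd1a, an H3 lysine 4 methyltransferase, had 59.4, 59.6 and 61.9 CPM in the Dia2 libraries and 74.1, 74.1 and 67.8 CPM in the control libraries (-0.26 ± 0.05, adjusted p = 0.000863), but 52.3% of its exon bases are shared with Gm49388 on the same strand. Setd2, which trimethylates H3 lysine 36, fell (-0.25 ± 0.05, adjusted p = 0.00174), as did the actin histidine methyltransferase Setd3 (-0.14 ± 0.04, adjusted p = 0.0191); Setd3 lost its call without Dia2 replicate 2 (adjusted p = 0.129). Setd4 and Setd6 did not pass.

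Of 16 histone lysine demethylase (Kdm) genes tested, 10 rose, 6 did not pass and 0 fell, with a median log2 fold change of 0.21. Over all genes tested 29.3% rose and 29.9% fell, and the share past the test in either direction was 62.5% for the Kdm genes and 59.2% for all genes. Of these genes 1, Kdm2b, was lower at an unadjusted p under 0.05, DESeq2 called 1 lower and limma-voom 0, and without control replicate 3 edgeR called 2 lower, Kdm2b and Kdm4a. The summed level of the family was 1115, 1127 and 1128 CPM in the Dia2 libraries and 967, 1013 and 985 CPM in the control libraries. The sums did not overlap. Of the 6 lysine 4 demethylases 4 rose and 2 did not pass, and of the 6 lysine 9 demethylases 4 rose and 2 did not pass.

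Kdm6b (chr11:69398518-69413675), also called Jmjd3, removes methyl groups from H3 lysine 27 and was the Kdm gene with the largest rise. It had 67.6, 67.3 and 70.6 CPM in the Dia2 libraries and 41.1, 43.7 and 38.3 CPM in the control libraries (0.74 ± 0.06, adjusted p = 3.71e-07). Its relative Kdm6a (Utx) had 32.3, 30.2 and 29.8 CPM in the Dia2 libraries and 27.1, 28.4 and 29.4 CPM in the control libraries, and did not pass (0.12 ± 0.06, adjusted p = 0.1). Per length, Kdm6b stood at 1.77 ± 0.109 times Kdm6a with Dia2 siRNA and 1.15 ± 0.104 times with control siRNA (SD, n = 3 each).

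Changes in the other demethylases were smaller. The flavin enzymes for lysine 4, Kdm1a (Lsd1) and Kdm1b, both rose. Kdm1a had 61.0, 62.3 and 62.1 CPM in the Dia2 libraries and 54.7, 55.9 and 53.2 CPM in the control libraries (0.18 ± 0.05, adjusted p = 0.00456). Kdm1b had 12.3, 14.2 and 12.9 CPM in the Dia2 libraries and 10.4, 10.6 and 10.1 CPM in the control libraries (0.34 ± 0.07, adjusted p = 0.00122). Of the Kdm5 enzymes, which act on trimethylated lysine 4, Kdm5b had 106, 107 and 104 CPM in the Dia2 libraries and 77.9, 88.9 and 86.4 CPM in the control libraries (0.32 ± 0.05, adjusted p = 0.000212). Kdm5a rose less (0.21 ± 0.05), and Kdm5c and Kdm5d, the X- and Y-linked copies, did not pass (0.01 for each). Kdm3a, a demethylase for dimethylated lysine 9, had 61.6, 63.6 and 61.3 CPM in the Dia2 libraries and 45.1, 51.1 and 51.8 CPM in the control libraries (0.33 ± 0.06, adjusted p = 0.000315). Kdm3b (0.26), Kdm4c (0.28), Kdm2a (0.22) and Kdm4b (0.18) also rose on the log2 scale. The call of Kdm4b was lost without Dia2 replicate 2 (adjusted p = 0.0684), Dia2 replicate 3 (adjusted p = 0.124) or control replicate 1 (adjusted p = 0.0535). Of the exon bases of Kdm3b, 24.6% are shared with Gm26538 on the opposite strand.

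**Figure D4:**
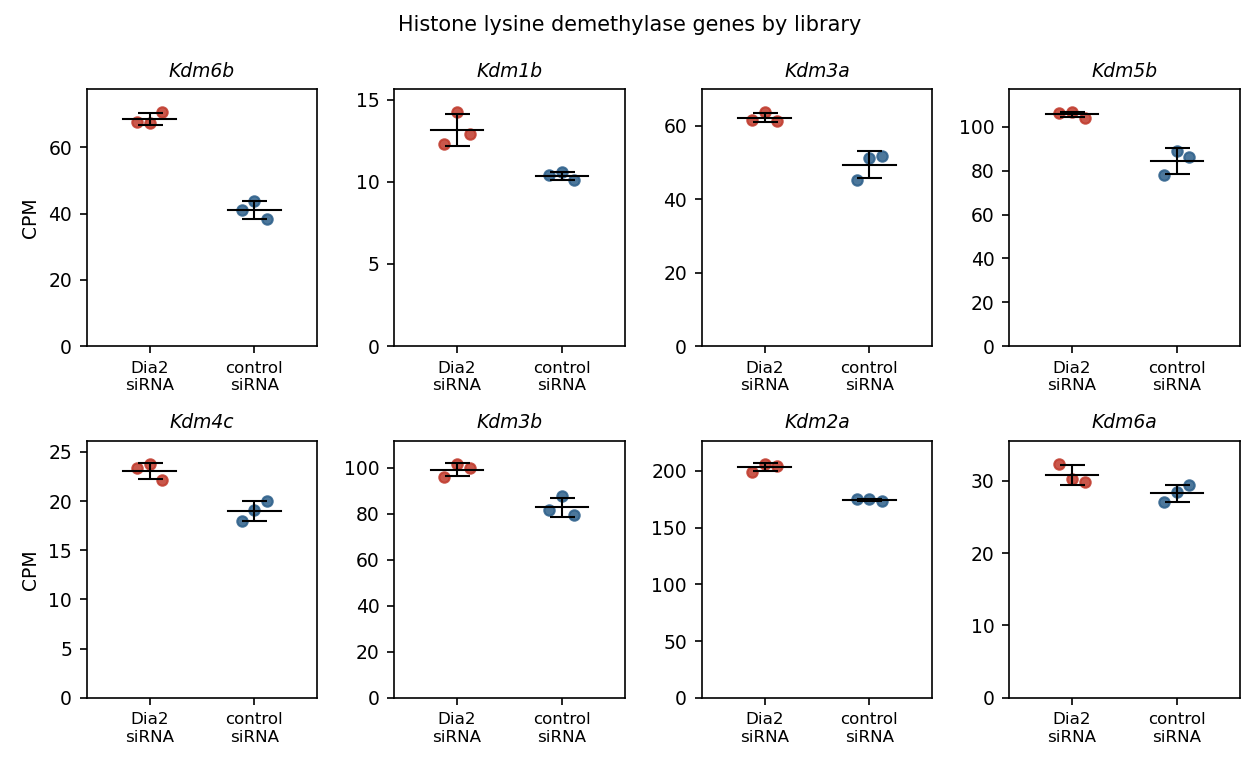
CPM of 8 Kdm genes (vertical axes, linear from 0) in the 3 Dia2 siRNA libraries (red) and the 3 control siRNA libraries (blue); points are libraries, long bars means and whiskers ± 1 SD. Every Dia2 library lies above every control library in all 8 panels; Kdm6a, in the last panel, did not pass the test.

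Ezh1 and Ezh2 are the alternative lysine 27 methyltransferases of Polycomb repressive complex 2, Ezh2 being the form of dividing cells. Ezh1 (chr11:101191115-101226450) had 26.8, 29.4 and 27.1 CPM in the Dia2 libraries and 17.7, 19.8 and 17.8 CPM in the control libraries (0.59 ± 0.07, adjusted p = 1.13e-05). Ezh2 had 57.4, 55.8 and 52.7 CPM in the Dia2 libraries and 62.1, 58.6 and 65.4 CPM in the control libraries (-0.17 ± 0.05, adjusted p = 0.0202). The groups were apart for both, where 59.2% of all genes tested passed and 64.6% did not overlap between the groups. The fall of Ezh2 lost its call without Dia2 replicate 2 (adjusted p = 0.0597), Dia2 replicate 3 (adjusted p = 0.1) or control replicate 1 (adjusted p = 0.0512). Ezh1 over Ezh2, per length, was 0.297, 0.335 and 0.327 in the Dia2 libraries and 0.181, 0.215 and 0.173 in the control libraries.

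Cbx7 (chr15:79915807-79932646), a reader of methylated lysine 27 in Polycomb repressive complex 1, had 7.95, 9.6 and 9.23 CPM in the Dia2 libraries and 4.45, 4.55 and 3.95 CPM in the control libraries. It rose 2.07-fold (1.05 ± 0.10, adjusted p = 2.29e-06). Cbx2 had 16.2, 16.3 and 15.7 CPM in the Dia2 libraries and 15.1, 13.6 and 12.0 CPM in the control libraries (0.24 ± 0.08, adjusted p = 0.0187) and lost its call without Dia2 replicate 1 (adjusted p = 0.058), Dia2 replicate 2 (adjusted p = 0.0679) or control replicate 2 (adjusted p = 0.0583). Cbx6 and Cbx8 did not pass. Among the partner proteins of complex 2, 3 of 9 rose and 3 fell. The accessory subunits Phf1 (0.82), Aebp2 (0.74) and Jarid2 (0.50) rose, and the lowest log2 fold change on the list was -0.35. Among the partner proteins of complex 1, 4 of 14 rose and 7 fell. The ubiquitin ligase Rnf2 (0.70) and Pcgf3 (0.65) were up, and Phc2 (-0.65) and Rybp (-0.64) were down. Of all genes tested, 29.3% rose and 29.9% fell.

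The 3 DNA methyltransferase genes tested all passed, 1 higher and 2 lower, where 29.3% of all genes tested rose and 29.9% fell. Dnmt1, which copies methylation after replication, had 133, 128 and 133 CPM in the Dia2 libraries and 174, 168 and 153 CPM in the control libraries (-0.33 ± 0.05, adjusted p = 0.000154). Dnmt3a, a de novo enzyme, had 49.8, 55.1 and 54.2 CPM in the Dia2 libraries and 40.1, 43.4 and 40.0 CPM in the control libraries (0.37 ± 0.06, adjusted p = 0.000172). Dnmt3b, the other de novo enzyme, had 1.86, 1.9 and 2.24 CPM in the Dia2 libraries and 2.49, 2.48 and 2.84 CPM in the control libraries (-0.38 ± 0.13, adjusted p = 0.0287). None of the 3 overlapped between the groups, where 64.6% of all genes tested did not overlap. Dnmt3b lost its call without Dia2 replicate 1 (adjusted p = 0.0927), Dia2 replicate 2 (adjusted p = 0.0986) or control replicate 3 (adjusted p = 0.0793). Of 8 partners, 1 rose, 2 fell and 5 did not pass; the demethylation glycosylase Tdg fell (-0.66). No partner rose without Dia2 replicate 2 or 3 or control replicate 1 or 2, and 3 rose without control replicate 3.

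Tet enzymes oxidise methylated cytosine. Tet1 (chr10:62804570-62880014) had 3.38, 2.62 and 3.48 CPM in the Dia2 libraries and 1.53, 1.53 and 1.54 CPM in the control libraries (1.04 ± 0.14, adjusted p = 5.38e-05). Tet2 had 14.1, 14.5 and 13.4 CPM in the Dia2 libraries and 9.4, 12.7 and 11.5 CPM in the control libraries (0.33 ± 0.10, adjusted p = 0.0121), a call lost without control replicate 1 (0.20, adjusted p = 0.0517). Tet3, the most abundant of the 3 per length, had 64.8, 64.9 and 66.9 CPM in the Dia2 libraries and 80.6, 83.7 and 81.3 CPM in the control libraries (-0.32 ± 0.04, adjusted p = 5.11e-05). Tet1 and Tet2 lay higher and Tet3 lower in every Dia2 library. Of all genes tested, 59.2% passed and 64.6% did not overlap between the groups.

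**Figure D5:**
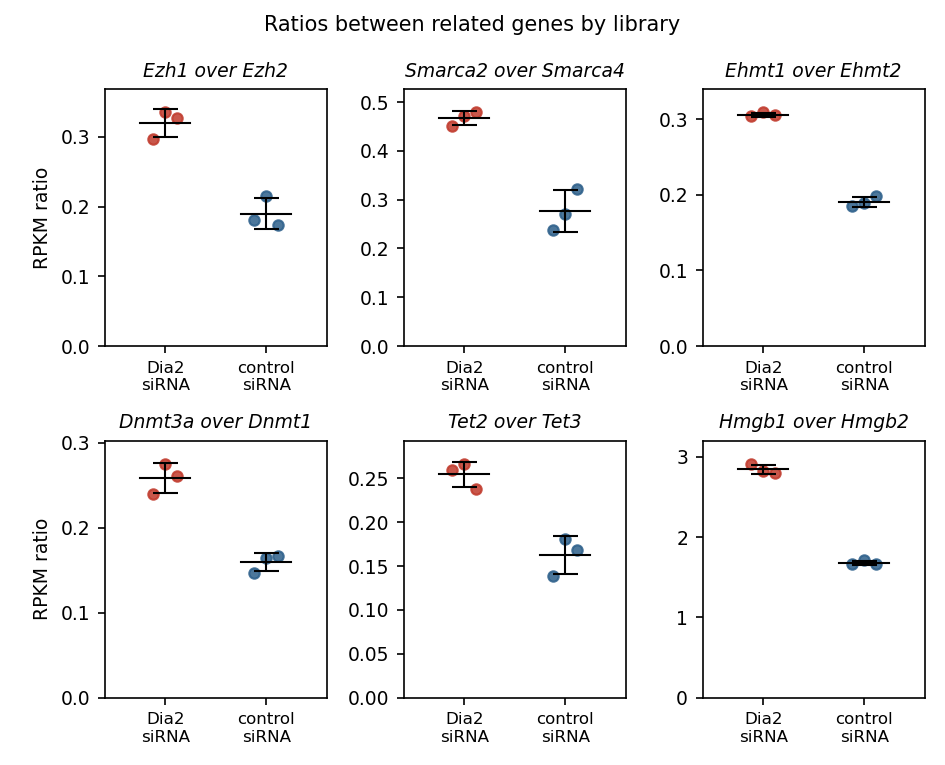
Ratio of the authors' RPKM values between 6 pairs of related genes (vertical axes, linear from 0) in the 3 Dia2 siRNA libraries (red) and the 3 control siRNA libraries (blue); points are libraries, long bars means and whiskers ± 1 SD. All 6 ratios are higher in every Dia2 library, with Ezh1 over Ezh2 at 0.297 to 0.335 against 0.173 to 0.215 in the control libraries. The pairs were chosen after the values had been seen. Each puts a gene that rose over one that fell, so the shared direction follows from that choice. Of the ratios not drawn, Smarcc2 over Smarcc1 and Kdm6b over Kdm6a were higher with Dia2 siRNA. Suv39h1 over Suv39h2 (mean 6.81 against 8.75) and Hdac1 over Hdac2 (mean 0.716 against 0.886) were lower with Dia2 siRNA.

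The remodelling complexes gave small changes in both directions. SWI/SNF complexes carry either Smarca4 (Brg1) or Smarca2 (Brm) as their ATPase. Smarca2 had 85.8, 91.0 and 93.3 CPM in the Dia2 libraries and 58.7, 66.6 and 66.7 CPM in the control libraries (0.49 ± 0.06, adjusted p = 1.65e-05). Smarca4 had 199, 202 and 204 CPM in the Dia2 libraries and 259, 258 and 217 CPM in the control libraries (-0.28 ± 0.06, adjusted p = 0.00227). The ratio of Smarca2 to Smarca4 RPKM was 0.452, 0.472 and 0.479 in the Dia2 libraries and 0.237, 0.27 and 0.322 in the control libraries. This ratio could not overlap, since Smarca2 was higher and Smarca4 lower in every Dia2 library. Smarce1, an accessory subunit, had 81.1, 80.7 and 80.1 CPM in the Dia2 libraries and 108, 105 and 105 CPM in the control libraries (-0.39 ± 0.04, adjusted p = 6.13e-06). The scaffold subunit Smarcc2 had 211, 225 and 225 CPM in the Dia2 libraries and 199, 207 and 185 CPM in the control libraries (0.16 ± 0.05, adjusted p = 0.0169), and its paralog Smarcc1 fell (-0.12 ± 0.04, adjusted p = 0.0314). The call of Smarcc2 was lost without Dia2 replicate 2 (adjusted p = 0.0831) or 3 (adjusted p = 0.0968), and that of Smarcc1 without any library except control replicate 3. Smarcb1, Smarcd1, Smarcd2 and Smarcd3 did not pass.

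Of the 14 Smarc genes tested, 3 rose, 3 fell and 8 did not pass, where 29.3% of all genes tested rose and 29.9% fell. Without control replicate 3, the fallers numbered 6, and without Dia2 replicate 2 or 3 the risers numbered 1. Smarca1, an ISWI ATPase, was scarce at 0.311 ± 0.079 CPM with Dia2 siRNA and 0.154 ± 0.0173 CPM with control siRNA (SD, n = 3 each) and rose 2.05-fold (adjusted p = 0.0291), a call lost in 7 of 15 alternative fits. Of 13 other SWI/SNF subunits tested, 5 rose and 3 fell. Bcl7a (0.62), Dpf2 (0.48) and Ss18 (0.45) were among the risers, and the lowest log2 fold change on the list was -0.39. The count of fallers on this list was 0 without Dia2 replicate 1 or 2 or control replicate 1 or 2. Of 12 ISWI and INO80 partners, 1 rose and 6 fell, with the helicase Ruvbl2 at -0.55 and Baz1a at -0.43. The lowest log2 fold change on the list was -0.95. On this list the count of risers was 0 without Dia2 replicate 1 or 3 or control replicate 1, and 3 without control replicate 3.

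Arid genes encode AT-rich interaction domain proteins. Among the SWI/SNF subunits, Arid1b (0.22 ± 0.04, adjusted p = 0.000797) and Arid2 (0.19 ± 0.04, adjusted p = 0.00177) rose. Arid1a had 122, 131 and 128 CPM in the Dia2 libraries and 140.2, 142 and 124 CPM in the control libraries; the groups overlapped and it did not pass (-0.10 ± 0.06, adjusted p = 0.161). It fell in the fit without control replicate 3 (-0.16, adjusted p = 0.000427). The transcription factor Arid3a (chr10:79927072-79955012) had 12.5, 13.2 and 13.3 CPM in the Dia2 libraries and 23.4, 23.2 and 22.5 CPM in the control libraries (-0.83 ± 0.06, adjusted p = 1.86e-07). Its relative Arid3b also fell, with 3.22, 3.17 and 3.1 CPM in the Dia2 libraries and 4.47, 4.94 and 5.25 CPM in the control libraries (-0.63 ± 0.10, adjusted p = 0.000212). Arid5a, an RNA-binding member, had 7.26, 6.5 and 6.48 CPM in the Dia2 libraries and 4.81, 4.94 and 4.06 CPM in the control libraries (0.54 ± 0.10, adjusted p = 0.000514). Arid4b, a Sin3 complex subunit, had 44.3, 43.4 and 43.0 CPM in the Dia2 libraries and 36.2, 35.1 and 40.2 CPM in the control libraries (0.23 ± 0.06, adjusted p = 0.00632). Arid5b rose by 0.17 and Arid4a did not pass.

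Chd proteins are chromodomain helicases. Chd9 (chr8:90828835-91054508) had 115, 116 and 116 CPM in the Dia2 libraries and 66.6, 67.0 and 75.1 CPM in the control libraries (0.73 ± 0.05, adjusted p = 2.37e-07). Chd6 had 67.2, 69.7 and 71.4 CPM in the Dia2 libraries and 51.9, 56.8 and 57.5 CPM in the control libraries (0.33 ± 0.05, adjusted p = 0.000192). Chd8, a regulator of Wnt target genes, had 145, 147 and 142 CPM in the Dia2 libraries and 132, 136 and 131 CPM in the control libraries (0.12 ± 0.04, adjusted p = 0.0263). None of these 3 overlapped, where 64.6% of all genes tested did not overlap between the groups. Of the 10 Chd genes tested, 3 rose, 1 fell and 6 did not pass, where 29.3% of all genes tested rose and 29.9% fell. The call of Chd8 was lost without any 1 Dia2 library or without control replicate 1 (adjusted p = 0.0723 to 0.133). Chd4, the ATPase of the NuRD deacetylase complex, had 498, 511 and 519 CPM in the Dia2 libraries and 556, 565 and 532 CPM in the control libraries. It sat at the threshold (-0.11 ± 0.05, adjusted p = 0.0499) and lost its call in 10 of 17 alternative fits, among them those without any 1 Dia2 library (adjusted p = 0.0851 to 0.175) and without control replicate 1 (adjusted p = 0.107) or 2 (adjusted p = 0.14). The others, Chd1, Chd1l, Chd2, Chd3, Chd5 and Chd7, did not pass.

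Among the Hdac genes the falls were in class I and class II. Hdac1, a catalytic subunit of NuRD, Sin3 and CoREST complexes, had 96.1, 95.7 and 97.2 CPM in the Dia2 libraries and 135, 140.5 and 132 CPM in the control libraries (-0.50 ± 0.04, adjusted p = 1.15e-06). Its paralog Hdac2 had 139, 138 and 133 CPM in the Dia2 libraries and 153, 149 and 167 CPM in the control libraries (-0.19 ± 0.05, adjusted p = 0.0052). Per length, Hdac1 stood at 0.702, 0.706 and 0.741 of Hdac2 in the Dia2 libraries and at 0.898, 0.958 and 0.803 in the control libraries, without overlap. Hdac6, a cytoplasmic tubulin deacetylase, had 26.0, 24.0 and 24.8 CPM in the Dia2 libraries and 32.3, 34.8 and 31.8 CPM in the control libraries (-0.40 ± 0.06, adjusted p = 0.000113). Hdac9, a class IIa corepressor, was scarce at 0.449 to 0.611 CPM in the Dia2 libraries and 1.24 to 1.41 CPM in the control libraries and fell 2.35-fold (-1.23 ± 0.21, adjusted p = 0.000261).

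Hdac11, the class IV gene, was the only Hdac gene to rise in this fit, with 6.14, 7.27 and 6.9 CPM in the Dia2 libraries and 5.23, 5.87 and 5.77 CPM in the control libraries (0.27 ± 0.09, adjusted p = 0.0246). It lost its call without Dia2 replicate 2 (adjusted p = 0.123), Dia2 replicate 3 (adjusted p = 0.082) or control replicate 1 (adjusted p = 0.11), and 17.9% of its exon bases are shared with Gm44002 on the opposite strand. In all, 4 of 11 Hdac genes fell, 1 rose and 6 did not pass, where 29.9% of all genes tested fell and 29.3% rose. Without control replicate 3, 7 Hdac genes fell. Among 19 NuRD, Sin3, CoREST and NCoR partners, 4 rose, 7 fell and 8 did not pass, with Mbd3 (-0.83) and Rcor1 (-0.63) down and Gatad2a (0.53) up.

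Of the 7 sirtuins, NAD-dependent deacylases, 1 rose, 1 fell and 5 did not pass, where 59.2% of all genes tested passed; without control replicate 2, 2 rose and 2 fell. Mitochondrial Sirt5, a desuccinylase, had 6.8, 5.66 and 4.68 CPM in the Dia2 libraries and 3.65, 3.53 and 3.6 CPM in the control libraries (0.66 ± 0.13, adjusted p = 0.000745). Nucleolar Sirt7 had 10.8, 11.0 and 11.4 CPM in the Dia2 libraries and 16.6, 15.3 and 13.4 CPM in the control libraries (-0.45 ± 0.08, adjusted p = 0.000358). Sirt1, the nuclear form, had 21.9, 20.7 and 19.3 CPM in the Dia2 libraries and 22.7, 20.9 and 24.6 CPM in the control libraries. Its groups overlapped and it did not pass (-0.14 ± 0.07, adjusted p = 0.122). Leaving out control replicate 2 brought it past the test (-0.20, adjusted p = 0.0322), and likewise Sirt2 in the upward direction (0.17, adjusted p = 0.0372).

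Other writers and readers of histone marks, which the family names did not cover, also split. Beside the counts below, 29.3% of all genes tested rose and 29.9% fell. Of 12 genes of the H3 lysine 4 methyltransferase complexes 4 rose and 5 fell. Mll1 (Kmt2a) stood at 0.44 and Mll3 (Kmt2c) at 0.46, and the lowest log2 fold change on the list was -0.4. Of 13 acetyltransferases and BET readers 4 rose and 5 fell, with Kat2b at -0.65. Of 12 other methyltransferases 2 rose and 7 fell, with Ash1l, an H3 lysine 36 enzyme, at 0.83 and the arginine methyltransferases Prmt1 and Prmt5 at -0.73 each.

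Several of the lower members are known for high levels in dividing cells, so growth genes are given beside them. For both lists below, the shares over all genes tested were 29.9% lower and 29.3% higher. Among genes of at least 10 CPM on average they were 38.3% lower and 30.3% higher. Of 22 DNA replication genes 16 fell, 6 did not pass and 0 rose, with a median log2 fold change of -0.30 and sums of 2123 to 2208 CPM in the Dia2 libraries and 2508 to 2793 CPM in the control libraries. At an unadjusted p under 0.05, 1 was higher, DESeq2 and limma-voom each called 1 higher, and without control replicate 3 edgeR called 2. Cdt1, which licenses replication origins, fell the most on the list (-0.67), and the helicase subunit Mcm5 fell by 0.55 on the log2 scale. Of 18 mitosis genes 4 rose, 6 fell and 8 did not pass, with sums of 2534 to 2616 CPM in the Dia2 libraries and 2444 to 2564 CPM in the control libraries; without any 1 Dia2 library or control replicate 1 the fallers numbered 3. The part of growth state in the changes of Hmgb2, Hmga2, Dnmt1, Ezh2, Suv39h1 and Setd8 was not tested.

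The start regions of the members were searched for words bound by E2F factors, which drive replication genes. The words, chosen after the values had been seen, were TTTCCCGC, TTTCGCGC, TTTGCCGC and TTTGGCGC on either strand, in RefSeq windows (GRCm38.p6) of 250 bases before to 50 after each start. Among members with a window, 3 of 26 lower genes, 0 of 27 higher genes and 5 of 35 genes that did not pass held a word, against 5.38%, 3.42% and 4.62% of the corresponding genes in the whole table and 2.26% of all windows. Only the 3 lower members, Dnmt1 (chr9:20952574-20952873), Ezh2 (chr6:47594981-47595280) and Suv39h1 (chrX:8074312-8074611), are printed. All are on the minus strand and written 5′ to 3′ in the direction of the gene. The 5 members with a word that did not pass, among them Arid1a and Cbx3, are not printed. Capitals mark the words. A match is a description of the letters and not a bound site, and the share with a word was no smaller among the members that did not pass.
Dnmt1 start region: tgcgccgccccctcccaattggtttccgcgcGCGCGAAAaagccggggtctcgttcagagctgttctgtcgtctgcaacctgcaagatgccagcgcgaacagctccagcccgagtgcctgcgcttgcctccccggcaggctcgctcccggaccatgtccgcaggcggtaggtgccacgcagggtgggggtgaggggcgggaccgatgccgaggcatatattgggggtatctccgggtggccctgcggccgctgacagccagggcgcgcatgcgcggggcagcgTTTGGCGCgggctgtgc
Ezh2 start region: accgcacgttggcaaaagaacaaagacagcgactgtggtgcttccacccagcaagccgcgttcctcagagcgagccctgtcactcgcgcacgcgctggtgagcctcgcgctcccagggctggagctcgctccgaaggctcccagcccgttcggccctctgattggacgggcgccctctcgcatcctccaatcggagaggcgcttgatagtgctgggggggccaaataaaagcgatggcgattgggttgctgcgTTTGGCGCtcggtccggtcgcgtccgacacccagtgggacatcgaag
Suv39h1 start region: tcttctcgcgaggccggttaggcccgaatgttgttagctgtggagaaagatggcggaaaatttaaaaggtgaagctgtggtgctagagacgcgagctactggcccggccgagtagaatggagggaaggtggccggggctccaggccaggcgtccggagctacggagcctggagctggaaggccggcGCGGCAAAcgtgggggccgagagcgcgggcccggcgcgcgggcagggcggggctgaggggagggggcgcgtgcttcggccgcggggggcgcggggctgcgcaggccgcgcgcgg

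The 3′ ends of the members were searched for the siRNA seed site. The word AACTTAA occurred in the annotated 3′ untranslated region (GENCODE M21, GRCm38) of 20 of 107 tested members, of which 9 rose and 4 fell. Of the 87 members without it, 25 rose and 26 fell. Over all genes with a 3′ region, 35.9% with the word rose and 27.9% fell, against 29.1% and 31.8% without it, and genes with the word had longer 3′ regions (a median of 2520 against 1026 bases). Among the members the word came with a longer 3′ region too, with medians of 2932 bases with it and 1143 bases without it. Hdac9, Cbx5, Setd8 and Tet3 fell with the word in place, and Tet1, Setd7, Ezh1, Setd5, Dnmt3a, Chd6, Kdm5a, Hmgb1 and Arid5b rose. The longest annotated 3′ region of each gene was searched, which need not belong to the transcript that was counted. The Hdac9 sites (chr12:34050904-34050930 and chr12:34049288-34049314) lie outside its counted row (chr12:34371497-34528889). The Hmgb1 site and an Arid5b site also lie outside the rows counted for those genes. The site of the other siRNA strand, GGACTCT, occurred in 22 members, of which 8 rose and 7 fell, against 26 higher and 23 lower of the 85 without it; over all genes 35.2% with it rose and 29.6% fell, against 29.3% and 31.5% without it. No test was made of either word. Sites of AACTTAA in 2 lower and 2 higher members with large changes are shown, with 10 bases on each side and the word in capitals. They lie at chr15:103193193-103193219 (minus strand, Cbx5), chr5:124461549-124461575 (plus strand, Setd8), chr10:62807156-62807182 (minus strand, Tet1) and chr3:51515365-51515391 (minus strand, Setd7).
Cbx5: tttaaaatgcAACTTAAttttcaaaat
Setd8: cacagaaaacAACTTAAcgtgtatata
Tet1: gagtaagtacAACTTAAgtttcatatt
Setd7: atgaaaagtaAACTTAAagattgctat

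An earlier scan of these data had picked TATGTGA and ATGTGAA, which do not match the siRNA seed, as words of lower genes, so the counts are no independent test. TATGTGA or ATGTGAA occurred in 27 of the 107 members, of which 10 fell and 9 rose, against 20 lower and 25 higher of the 80 members without them. Over all genes, 40.0% with either word fell and 26.1% rose, against 28.7% and 31.2% without. The word of higher genes from that scan, GCAGTAC, occurred in 7 members, of which 2 rose and 2 fell, against 50.7% higher and 19.8% lower of all genes with it. The first Hmgb2 site (chr8:57514171-57514197, plus strand) and the Hmgn2 site (chr4:133964945-133964971, minus strand) are shown with ATGTGAA in capitals. Both genes fell (-0.57 and -0.74), and no site of the 9 members that rose is shown.
Hmgb2: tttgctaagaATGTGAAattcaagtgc
Hmgn2: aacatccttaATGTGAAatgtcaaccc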

How the data were processed

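RNA of 6 libraries (3 with Dia2 siRNA, 3 with control siRNA) was analysed from 1 table. The sample titles gave group and replicate. The deposited table gives, per the file headers, a count and an RPKM value per gene and library, with a coding length and coordinates. The submitters' processing notes name bcl2fastq, TopHat2 2.0.6 and HTSeq without roles, and name human builds (hg19 and GRCh37). The table holds mouse genes, 99.27% of those with a matching symbol overlapping that gene in GRCm38, so GRCm38 was taken as the build of its coordinates. Annotation, strandedness and the handling of multiply mapped reads are not stated, so counts of overlapping genes cannot be told apart. All deposited counts were even, with 0 odd values, so the floor was set at 6 counts (3 fragments, if each added 2). No pair of replicates agreed within sampling noise.

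Counts were filtered with filterByExpr (minimum count 10, minimum total 15), scaled with TMM factors and tested with edgeR 4.0.16 (quasi-likelihood, robust; limma 3.58.1, R 4.3.3), with no covariate, on all genes; the fit was tested on simulated data. RPKM values were used as the authors deposited them for levels and ratios between genes, and no test used them. The members, gene lists and sequence words were chosen with earlier results of these data known. Values in every library are given for at most 4 members per family with the largest change among those past an adjusted p of 0.05 at a mean of at least 1 CPM, and for a fixed list of well-known members whatever their p. The alternatives were DESeq2 size factors, upper-quartile factors, no composition factor, no filter beyond 1 count, a mean of at least 1 CPM, limma-voom, DESeq2 1.42.0, a replicate block, halved counts, no Rn45s and Lars2, and libraries left out. Single values of some members are not reported here.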

Additional observations from a re-analysis of the deposited data

How the results depend on the processing

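The fit was repeated under 17 alternatives. Of the 110 tested members 80 kept their call in all of them, as did 51 of the 65 members past the threshold. Genes called over the whole table ranged from 7343 to 9193 when each library was left out in turn, members called higher from 28 to 36 and members called lower from 26 to 38. Deviations from the group means correlated at 0.0036, -0.0014 and -0.0844 between same-numbered libraries, and at -0.0486 to 0.0542 between differently numbered ones. With 3 libraries per group, these values cannot show whether a number stands for a shared culture or day. With the replicate number as a block, 7772 genes, 31 higher members and 27 lower members were called, and 7 members were no longer past the threshold. Suv420h2 passed the threshold with the opposite sign in 1 alternative: it ranged from -0.27 without Dia2 replicate 2, the library with the high count, to 1.59 without Dia2 replicate 1. Other members that did not pass the test crossed 0 between alternatives, with no call of opposite sign, such as Chd1l (-0.19 to 0.03) and Sirt4 (-0.06 to 0.13). The calls of Chd4, Smarcc1, Smarca1, Chd8, Cbx2, Ezh2, Kdm4b, Hmga2-ps1, Hdac11, Dnmt3b, Setd3, Smarcc2, Tet2 and Hmgb1 were lost in at least 1 alternative, and the cause was not tested. Without control replicate 3, 11 members that had not passed did so, among them Cbx3 and Arid1a. No alternative moved the median of all genes by over 0.1 (log2). Depth limits statements to genes above the floor, and 3 libraries a group leave 1 library able to decide a small change.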

Other observations

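The Suv420h2 value of Dia2 replicate 2 was not the only one of its kind. Genes above 2 CPM and more than 4 times every other library numbered 5 in Dia2 replicate 2, namely Gm20594 (203 against at most 0.522 CPM elsewhere), Sap30l (246 against at most 20.6 CPM), Csad (118 against at most 25.7 CPM), 0610012G03Rik (117 against at most 22.6 CPM) and Suv420h2 (72.2 against at most 14.6 CPM). There was 1 such gene in Dia2 replicate 1, 2 in Dia2 replicate 3, 1 in control replicate 3 (Prickle1, a planar polarity gene, at 107 against at most 18.4 CPM) and 0 in control replicates 1 and 2. These genes were picked for their values, and the cause was not tested.

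Per length, the members spanned a wide range of levels. In the control libraries 50 members averaged at least 10 RPKM and 16 averaged under 1 RPKM, with a median of 7.62 RPKM. Hmgn1, Hmgn2, Hmgb1 and Cbx3 led, and Hmgn2 averaged 65.2 RPKM in the Dia2 libraries and 111 RPKM in the control libraries, whereas Hmgb1 averaged 109 RPKM in the Dia2 libraries and 98.1 RPKM in the control libraries.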
